A study of Drosophila melanogaster with 60 samples.

Results

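Gene expression was compared between female white prepupae with a germline and female white prepupae without one, at the moment of puparium formation (0 hour after puparium formation, APF). The comparison used 6 of the 60 two-color arrays of the series, 3 for wild type females and 3 for tud progeny females, chosen by the genotype, sex and stage in their labels. Wild type females were of the Canton S strain. The tud progeny females came from mothers homozygous for tud1, bw1 and sp1 that were mated to males with the y and w mutations, a w+cM UBI-GFP transgene and an FRT insertion on a P element, and daughters were told from sons by the GFP on the X chromosome they had from their fathers. Animals of both genotypes were raised at 25 °C, collected between Zeitgeber time 1 and 4, frozen at once and extracted as whole bodies, about 30 pupae to an RNA sample. Every sample was hybridized against 1 common reference of Canton S pupae of both sexes and all pupal stages, so each value is the log2 ratio of a sample to that reference. Because the genotypes also differed in strain, in the paternal X chromosome and in the mother, the loss of the germline and these differences cannot be told apart.

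The maternal tudor product is needed to assemble the germ plasm of the egg, and embryos laid by tud mutant mothers form no pole cells, so they grow into animals with a somatic gonad and no germ cells. The progeny themselves carry a wild type paternal copy of the gene, and no probe paired with the name tudor was analysed here. Puparium formation is set off by a pulse of ecdysone at the end of larval life. Around this time the larval fat body takes storage proteins back up from the hemolymph, the larval midgut begins to die, and the puparium hardens and darkens. The female gonad at this stage is a small larval ovary, whereas the larval testis already holds spermatocytes.

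Of 15744 probes, 10121 had a value on at least 1 of the 6 arrays and 3695 had a value on all 6. The number of values per array was 8927, 5697 and 5693 in wild type females (6772 ± 1866, SD, n = 3) and 6992, 6786 and 7452 in tud progeny females (7077 ± 341, SD, n = 3). These numbers overlapped between the genotypes (exact two-sided permutation test, p = 1, where 3 against 3 arrays cannot go below 0.1). Over the 3695 probes the correlation between arrays was 0.939 to 0.953 among wild type females, 0.947 to 0.975 among tud progeny females, and 0.908 to 0.942 across genotypes. An element weak in the sample but bright in the reference keeps a very low ratio, and between 57 and 98 probes per array lay below −5, so the size of a difference at such levels is not firm. The labels put the sample in the Cy5 channel, while the study's methods name the dyes the other way round, and the sign used here follows the labels. With that sign, roX1, whose RNA belongs to the dosage compensation machinery of males, was at −2.79, −2.66 and −2.70 in wild type females and 0.77, 0.76 and 1.40 in wild type males. It was at −3.55, −3.73 and −3.10 in tud progeny females and 1.21, 1.01 and 1.18 in tud progeny males, so for this gene all females lay below all males. The related roX2 had few values and did not separate the sexes, at −2.78, 0.24 and 0.14 in wild type females and 0.51 and −0.00 on the 2 wild type male arrays with a value.

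A probe was tested where each genotype had at least 2 values, which 5842 probes did. limma was fitted over all 60 arrays with 1 mean per group, and a difference was called at an adjusted p (Benjamini-Hochberg) under 0.15, the level the study used. All differences below are wild type minus tud progeny on the log2 scale, and an adjusted p is always that of the limma fit over all tested probes. In 0 hour females 460 probes passed (7.87%). Of these, 222 were higher in wild type (3.80%) and 238 were lower (4.07%), and the median difference over all tested probes was −0.00. At an adjusted p under 0.05, 195 probes passed, and 954 had an unadjusted p under 0.05. Among the 3695 probes with all 6 values the genotypes did not overlap for 1058 (28.6%), with wild type higher for 581 (15.7%) and lower for 477 (12.9%). The counts depended on single arrays: leaving out tud progeny replicate 1 gave 88 higher and 104 lower, tud progeny replicate 3 gave 94 and 126, wild type replicate 1 gave 171 and 122, wild type replicate 2 gave 106 and 188, and wild type replicate 3 gave 113 and 163. A published gene name was paired with 2001 of the tested probes, and 196 of those passed (9.80%), 90 higher (4.50%) and 106 lower (5.30%). The gene lists below hold only such named probes, so these shares are a closer background for them than those of all probes. The lists were also chosen with earlier results of these data known, so a share above either background is not independent evidence.

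Storage proteins of the larval fat body were lower in wild type than in tud progeny females for 4 of 6 tested members (66.7%) and higher for none. Of all probes tested 4.07% were lower, and of those with a published name 5.30%. Their median difference was −1.0. The larval serum proteins are hexamerins that fill the hemolymph of the late larva. Lsp1alpha was at −0.70, −1.07 and −0.81 in wild type females and 1.52, 1.15 and 1.19 in tud progeny females. The 2 sets of values were well apart, and the gene was 4.44-fold lower in wild type (−2.15 ± 0.33, SE, adjusted p = 2.22e-05). Lsp1beta was at −1.91, −2.0 and −1.86 in wild type and 0.18, −0.15 and 0.07 in tud progeny females, again without overlap (−1.95 ± 0.28, SE, 3.88-fold, adjusted p = 8.75e-06). Lsp1gamma was at 1.73, 1.05 and 0.78 in wild type and 2.33, 2.16 and 2.46 in tud progeny females (−1.13 ± 0.26, SE, 2.19-fold, adjusted p = 0.00516). All 3 subunits of this storage protein were thus lower in every wild type array than in any tud progeny array, although the 3 genes are related in sequence and signal shared between their probes was not tested. Fbp2, another fat body protein, was at 0.59, 0.11 and 0.72 in wild type and 1.42, 1.32 and 1.29 in tud progeny females (−0.87 ± 0.32, SE, adjusted p = 0.13), a call that was lost without any of 5 single arrays (wild type 1 or 2, or any tud progeny array, adjusted p from 0.176 to 0.357). The remaining members were Fbp1, the receptor that takes the serum proteins up, whose values overlapped (0.03, adjusted p = 0.987), and Tsf1, an iron-binding transferrin (−0.50, adjusted p = 0.403). In whole bodies, fewer cells of a type and less RNA per cell cannot be told apart.

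**Figure D1:**
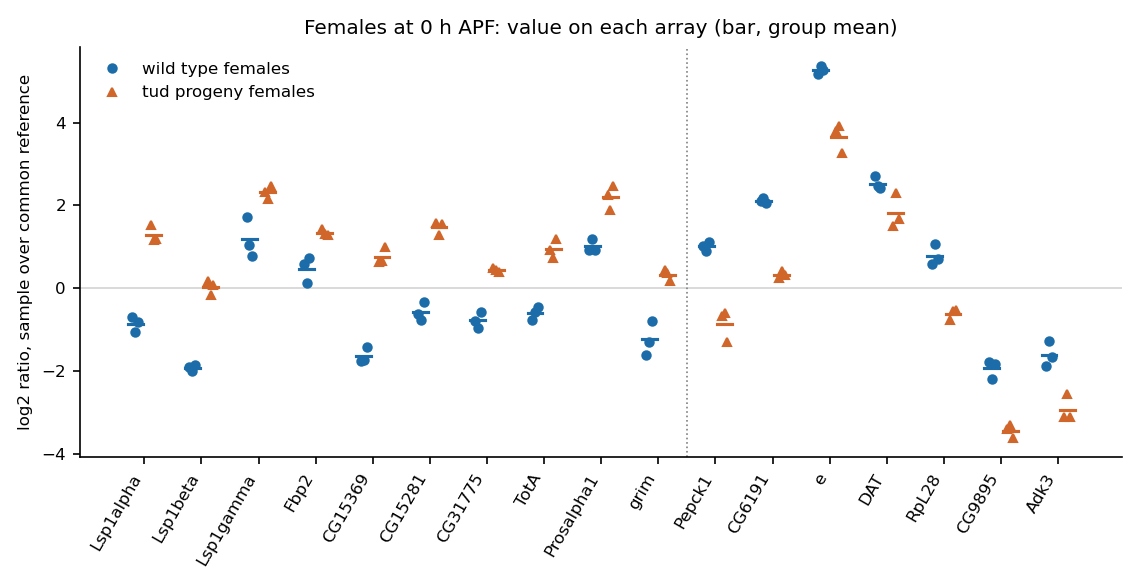
Log2 ratio to the common reference (y axis) of 17 genes past the threshold (x axis) on each of the 3 wild type (circles) and 3 tud progeny (triangles) female arrays at 0 hour APF, with a bar at each group mean. The genes left of the dotted line were lower in wild type and those right of it were higher; Lsp1beta lay near −1.92 in wild type and 0.03 in tud progeny females, and Pepck1 near 1.02 and −0.86.

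Genes of the larval midgut had mostly negative differences. Of 13 digestive enzyme genes tested, 11 had a negative difference (median −0.58). By the test 2 were lower in wild type (15.4%, against 4.07% of all probes and 5.30% of named probes) and none was higher. LysB, a digestive lysozyme, was at 0.68, 0.63 and 0.86 in wild type and 2.18, 1.90 and 2.33 in tud progeny females (−1.41 ± 0.46, SE, 2.66-fold, adjusted p = 0.0832). Jon99Ciii, a serine protease of the gut, was at 2.07, 2.22 and 1.57 in wild type and 3.14, 3.16 and 2.88 in tud progeny females (−1.11 ± 0.35, SE, adjusted p = 0.0672). Both genes had every wild type value below every tud progeny value, as did 8 of the 12 members measured on all 6 arrays, against 12.9% of all probes. Trypsins and other Jonah proteases among them did not pass: gammaTry had a difference of −0.92 (adjusted p = 0.465), epsilonTry one of −1.01 (adjusted p = 0.506) and Jon25Biii one of −0.86 (adjusted p = 0.274). The LysB call was lost without wild type replicate 1 or 2 or tud progeny replicate 1 or 3 (adjusted p from 0.156 to 0.240), and that of Jon99Ciii without wild type replicate 3 or tud progeny replicate 1 (0.193 to 0.236).

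Of 23 immune genes tested, 4 were lower in wild type females (17.4%, against 4.07% of all probes and 5.30% of named probes). None was higher, and the median difference was −0.22. TotA, a humoral stress protein of the Turandot family, was at −0.76, −0.58 and −0.45 in wild type and 0.93, 0.73 and 1.18 in tud progeny females, with no overlap (−1.54 ± 0.27, SE, 2.91-fold, adjusted p = 0.000262). Drsl5 and Drsl4 encode relatives of the antifungal peptide Drosomycin. Drsl5 was at 0.64, 0.75 and 0.59 in wild type and 1.61, 1.44 and 2.06 in tud progeny females (−1.04 ± 0.29, SE, adjusted p = 0.0332). Drsl4 was at 1.15, 1.06 and 1.00 in wild type and 1.66, 1.65 and 2.09 in tud progeny females (−0.73 ± 0.21, SE, adjusted p = 0.0407). The fourth gene was LysB, counted here as well. Drosomycin itself (Drs) had values of 0.18, 0.17 and 0.30 against 0.50, 0.65 and 1.28 and did not pass (−0.60, adjusted p = 0.414), and Rel, the NF-kappaB factor of the Imd pathway, did not either (0.45, adjusted p = 0.467). Without tud progeny replicate 3, the highest of its group for both genes, Drsl5 and Drsl4 missed the threshold (adjusted p = 0.205 and 0.243) and the list kept 1 lower gene.

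Calls among cell death and autophagy genes were few, and only that of grim held without each single array. Among 15 such genes, 3 were lower in wild type (against 4.07% of all probes and 5.30% of named probes). None was higher, and the median was −0.15. The pro-apoptotic gene grim, whose product blocks an inhibitor of caspases, was at −1.62, −1.30 and −0.80 in wild type and 0.44, 0.37 and 0.18 in tud progeny females, without overlap (−1.57 ± 0.35, SE, 2.96-fold, adjusted p = 0.00611). Atg17, which acts with the kinase that starts autophagy, had a difference of −0.84 ± 0.28 (SE, adjusted p = 0.104), and Atg8a, a protein of the autophagosome membrane whose values overlapped, had one of −0.45 ± 0.16 (SE, adjusted p = 0.118). Single arrays decided both autophagy calls: Atg17 was lost without wild type replicate 2 or tud progeny replicate 1 or 2 (adjusted p from 0.194 to 0.432), and Atg8a without wild type replicate 1 or 3 or tud progeny replicate 1 or 3 (0.227 to 0.464).

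Of 35 proteasome genes, 4 were lower in wild type and 1 was higher, with a median of −0.12. The share called was 14.3%, against 7.87% of all probes and 9.80% of named probes. Prosalpha1, a subunit of the outer ring of the 20S core, was at 0.91, 1.19 and 0.93 in wild type and 2.26, 1.90 and 2.47 in tud progeny females (−1.19 ± 0.16, SE, 2.29-fold, adjusted p = 2.24e-06). Its near copy Prosalpha1R was at 0.75, 1.11 and 1.07 in wild type and 2.36, 2.11 and 2.47 in tud progeny females (−1.33 ± 0.18, SE, 2.52-fold, adjusted p = 4.15e-06). These 2 probes did not overlap between genotypes but may share signal, and they cannot be counted as separate evidence. The others were small: Prosbeta7 had a difference of −0.49 (adjusted p = 0.124), Prosalpha5 one of −0.59 (adjusted p = 0.111) with overlapping values, and Rpt6, an ATPase of the 19S cap, was higher by 0.47 (adjusted p = 0.122). Prosalpha5 was lost without wild type replicate 1 or 3 or tud progeny replicate 1 or 3 (adjusted p from 0.241 to 0.428), and Rpt6 without wild type replicate 2 or 3 or tud progeny replicate 1 or 3 (0.228 to 0.498).

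Detoxification and redox genes gave the largest number of calls of any list, 9 of 23 tested. That share was 39.1%, against 7.87% of all probes and 9.80% of named probes. Of the 9, 7 were lower in wild type females and 2 were higher (list median −0.29). The glutathione S-transferase GstT3 was at −0.06, −0.19 and −0.12 in wild type and 1.24, 0.70 and 0.97 in tud progeny females (−1.09 ± 0.20, SE, 2.13-fold, adjusted p = 0.000579). The microsomal transferase Mgstl was at −0.86, −0.57 and −0.83 in wild type and 0.13, −0.24 and 0.48 in tud progeny females (−0.88 ± 0.19, SE, adjusted p = 0.00308). GstE12 differed by −0.56 ± 0.15 (SE, adjusted p = 0.0264), and for all 3 transferases the genotypes did not overlap. In the other direction, Prx3, a mitochondrial peroxiredoxin, was at −2.95, −3.51 and −2.35 in wild type and −4.37, −4.30 and −4.05 in tud progeny females (1.30 ± 0.32, SE, 2.47-fold, adjusted p = 0.0106). The cytochrome P450 gene Cyp6d5 was also higher in wild type, by 1.27 (adjusted p = 0.0409). The number of lower genes fell to 4 without wild type replicate 1, to 3 without wild type replicate 3 or tud progeny replicate 1 or 3, and to 4 with quantile normalization or when the fit held just the 6 arrays compared. GstE12 missed the threshold in that last fit.

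Metabolic genes as a group were evenly split. Of the 23 tested members 2 passed (8.70%), close to the 7.87% of all probes and below the 9.80% of named probes. The values of these 2 genes stood far apart between the genotypes. Pepck1, the phosphoenolpyruvate carboxykinase of gluconeogenesis, was at 1.03, 0.89 and 1.12 in wild type and −0.67, −0.60 and −1.30 in tud progeny females. Every wild type value was above every tud progeny value, and the gene was 3.66-fold higher in wild type (1.87 ± 0.24, SE, adjusted p = 1.05e-06). Men, the malic enzyme that yields NADPH for lipid synthesis, was at −3.08, −2.77 and −2.71 in wild type and −1.79, −1.0 and −1.34 in tud progeny females, 2.78-fold lower in wild type (−1.48 ± 0.23, SE, adjusted p = 3.31e-05). The list's median difference was −0.03.

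Of 12 genes of cuticle tanning and dopamine handling, 2 were higher in wild type females and 1 was lower (median −0.18). Of all probes 3.80% were higher, and of named probes 4.50%. The gene ebony (e), whose product joins beta-alanine to dopamine for sclerotization, was at 5.19, 5.38 and 5.28 in wild type and 3.81, 3.91 and 3.26 in tud progeny females, above the reference in all and without overlap (1.62 ± 0.50, SE, 3.07-fold, adjusted p = 0.0643). DAT, the dopamine transporter, was at 2.70, 2.47 and 2.42 in wild type and 1.51, 2.29 and 1.66 in tud progeny females (0.71 ± 0.26, SE, adjusted p = 0.123). Dhpr, which regenerates the pterin cofactor that dopamine synthesis uses, was lower by −0.64 ± 0.21 (SE, adjusted p = 0.0802). Ddc, the dopa decarboxylase, did not pass, although its wild type values of 1.17, 1.17 and 1.22 lay below tud progeny values of 2.12, 1.49 and 1.54 (−0.53, adjusted p = 0.547). Without tud progeny replicate 3 the ebony call was lost (adjusted p = 0.243), that of DAT was lost without any array but tud progeny replicate 2 (0.170 to 0.398), and that of Dhpr without wild type replicate 1 or 3 or tud progeny replicate 1 or 3 (0.156 to 0.257).

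Of 24 probes tested for genes of the ecdysone response, 2 were higher in wild type females (8.33%, against 3.80% of all probes tested), none was lower, and the median was 0.26. The share called in either direction was close to the 7.87% of all probes and below the 9.80% of named probes. One was a probe of broad (br), an early zinc finger gene of the response, at 2.07, 1.95 and 2.17 in wild type and 1.15, 1.51 and 0.92 in tud progeny females (0.87 ± 0.30, SE, 1.83-fold, adjusted p = 0.106). The other was ImpL2, an ecdysone-inducible gene for a secreted insulin-binding protein, at 0.57, 1.18 and 0.67 in wild type and −0.05, 0.17 and 0.04 in tud progeny females (0.75 ± 0.26, SE, adjusted p = 0.115). Neither overlapped between genotypes, but the br call was lost without wild type replicate 1 or 3 or tud progeny replicate 1 or 3 (adjusted p from 0.181 to 0.339) and the ImpL2 call without wild type replicate 2 or 3 or tud progeny replicate 1 or 3 (0.153 to 0.357). Eip93F, a competence factor for the death of larval tissues, was at 0.10, 0.18 and 0.38 against −0.30, −0.32 and −0.09 and did not pass (0.46, adjusted p = 0.45).

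Other somatic groups were read against the same 7.87% of all probes called in either direction, and 9.80% of named probes. Among 37 cuticle gene probes 1 passed (2.70%), the larval cuticle protein gene Lcp1 (−1.48 ± 0.48, SE, adjusted p = 0.0832), and it was lost without wild type replicate 1 or 3 or tud progeny replicate 1 or 3 (0.174 to 0.212). Of 14 ribosomal protein genes 2 passed (14.3%), in opposite directions. RpL28 was higher in wild type at 0.59, 1.07 and 0.70 against −0.78, −0.55 and −0.52 (1.40 ± 0.27, SE, 2.65-fold, adjusted p = 0.00116). RpS20 was lower by −0.49 (adjusted p = 0.118), a call that was lost without wild type replicate 1 or 3 or tud progeny replicate 1 or 3 (0.200 to 0.428), and the list's median was −0.02. None of 16 heat shock genes passed in the limma fit (median −0.03, 0 with an unadjusted p under 0.05), nor did any of 16 muscle gene probes (median −0.44, 0 with an unadjusted p under 0.05). In the muscle list 1 array stood apart: fln, the flight muscle gene flightin, was at −4.18 in tud progeny replicate 3 and at −8.72 and −8.49 in the other tud progeny arrays, and Mlc2, a myosin light chain, was at −4.02 there against −7.23 and −7.11. Those levels are in the range where ratios are not firm.

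**Figure D2:**
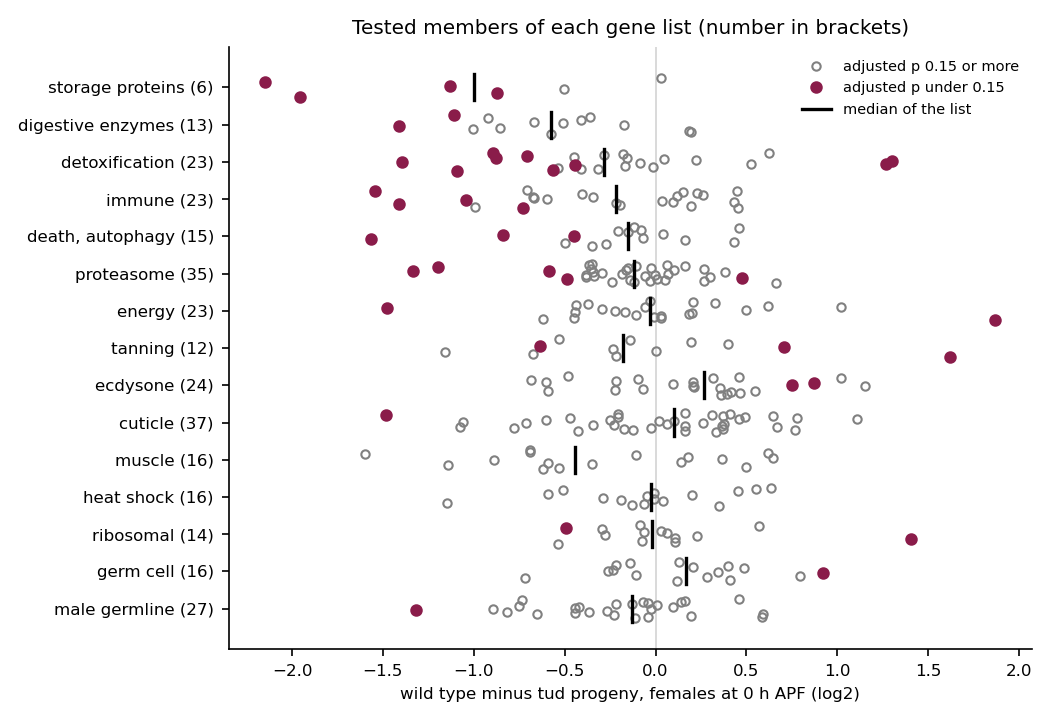
Difference between genotypes (x axis, log2, wild type minus tud progeny, females at 0 hour APF) of each tested probe in 15 gene lists (y axis, number tested in brackets); filled points passed an adjusted p of 0.15, open points did not, and the bar is the list's median. The storage proteins have the lowest median of these lists, −1.0, and the ecdysone response the highest, 0.26.

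Outside the lists, the named probes with the largest differences among those with all 6 values and no overlap included 2 linked to lipid and hemolymph. Npc2b, of the sterol-binding Niemann-Pick C2 family, was at −0.49, 0.11 and 0.20 in wild type and 1.82, 1.53 and 1.77 in tud progeny females (−1.76 ± 0.31, SE, 3.40-fold, adjusted p = 0.000256). The clotting protein gene fondue (fon) was at −4.25, −4.31 and −4.06 in wild type and −2.23, −2.19 and −2.52 in tud progeny females (−1.89 ± 0.27, SE, adjusted p = 6.84e-06). CtsL3, a cathepsin L-like protease gene, was at 0.30, 0.27 and 0.38 in wild type and 1.96, 1.89 and 2.11 in tud progeny females (−1.67 ± 0.37, SE, 3.18-fold, adjusted p = 0.00432). In these 3 genes the values within each genotype spanned less than the gap between genotypes. Genes known here only by number showed differences as large. CG15369 was at −1.76, −1.73 and −1.41 against 0.64, 0.65 and 0.99 (−2.39, 5.25-fold, adjusted p = 3.84e-07), and CG15281 and CG30193 differed by −2.05 and −2.04. CG32182 differed by −2.73 (adjusted p = 0.000271), at −2.17, −0.29 and −2.53 against 1.24, 1.07 and 0.89, so 1 wild type value lay far above the other 2. Cse1, a nuclear export receptor, differed by −1.82 (adjusted p = 0.0738), with 1 wild type value of −2.58 far below the other 2, −0.39 and −0.31, and it was lost without wild type replicate 3 or tud progeny replicate 1 or 3 (0.156 to 0.409).

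Among named probes higher in wild type females, CG6191 had the smallest adjusted p. It was at 2.10, 2.18 and 2.07 in wild type and 0.24, 0.42 and 0.31 in tud progeny females (1.79 ± 0.16, SE, 3.46-fold, adjusted p = 2.48e-10). Adk3 was at −1.88, −1.28 and −1.66 in wild type and −3.12, −2.57 and −3.12 in tud progeny females (1.33 ± 0.21, SE, 2.51-fold, adjusted p = 3.31e-05). CG9895 was at −1.78, −2.20 and −1.83 against −3.41, −3.31 and −3.62 (1.51 ± 0.28, SE, adjusted p = 0.000613). The groups did not overlap for any of these genes. CG40367 was higher by 1.96 (adjusted p = 0.000554) and HemK1, a methyltransferase for translation release factors, by 1.33 (adjusted p = 0.00241), each with 1 wild type value far above the rest, and HemK1 missed the threshold when the fit held just the 6 arrays compared. Of the called probes without a gene name that had all 6 values and no overlap, DAC018J24 had the largest positive difference, at −0.58, −0.85 and 0.71 against −3.19, −3.56 and −4.23 (3.42 ± 0.83, SE, 10.7-fold, adjusted p = 0.0123), and DAC029H06 the largest negative one, at −3.54, −3.34 and −2.84 against −0.45, −0.72 and −0.25 (−2.77 ± 0.46, SE, 6.80-fold, adjusted p = 0.000132).

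Germline genes had 1 call between these females. Of 16 probes for genes of the female germline and early oogenesis, 1 was higher in wild type, none was lower, and the median difference was 0.17. The share higher was 6.25%, against 3.80% of all probes and 4.50% of named probes. The gene past the threshold was smaug (smg), a repressor of maternal mRNAs, which was at −0.33 and 0.52 on 2 wild type arrays and −0.87, −0.70 and −0.90 in tud progeny females (0.92 ± 0.31, SE, adjusted p = 0.111), and it was lost without tud progeny replicate 1 or 3 (both 0.248). None of the 9 members measured on all 6 arrays separated the genotypes, against 28.6% of all probes measured on all 6. The translational regulator cup was at −2.07, −1.89 and −1.67 against −1.65, −1.81 and −1.46 (adjusted p = 0.447), bru1 was at −3.33, −3.13 and −2.92 against −3.22, −2.88 and −2.95 (adjusted p = 0.933), and the yolk receptor gene yolkless (yl) was at 1.28, 1.02 and 1.21 against 1.23, 1.32 and −0.50 (adjusted p = 0.502). The labelled absence of a germline therefore could not be read from this list in these females, and vasa, nanos, oskar and orb were not analysed here because no probe was paired with their names. In 0 hour males, 8 of the 16 members tested there were higher in wild type (against 9.64% of all probes) and 3 were lower (against 16.6%).

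Markers of the male germline were low in females of both genotypes. The testis tubulin betaTub85D was at −7.11, −7.91 and −6.86 in wild type and −8.29, −6.62 and −5.65 in tud progeny females, and the sperm gene Mst77F was at −6.61, −6.74 and −6.76 against −6.28, −6.42 and −4.97. Over the 22 members measured on all 6 arrays, the median log2 ratio per array ran from −3.62 to −1.40 in wild type and from −2.35 to −2.21 in tud progeny females, which overlapped. Of 27 members tested, 1 passed (3.70%, against 7.87% of all probes). It was Mst87F, a gene of sperm development, at −4.12, −3.83 and −4.29 against −2.77, −3.29 and −2.22 (−1.32, adjusted p = 0.102, lost without wild type replicate 1 or 3 or tud progeny replicate 1 or 3, 0.182 to 0.373). In 0 hour males, by contrast, 23 of 30 members were higher in wild type than in tud progeny, none was lower, and the median difference was 1.84 (9.64% of all 6081 probes tested in males were higher).

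The tested genes that set sex, and white among those mutant in the parental strains, gave no calls. All 5 tested probes of the sex determination list missed the threshold in the limma fit, 2 of them with an unadjusted p under 0.05. Sex lethal, the switch gene of female development, was at 0.78 and 0.57 on the 2 wild type arrays with a value and 0.76, 0.53 and 0.79 in tud progeny females (−0.02, adjusted p = 0.994). A second Sex lethal probe had 1 wild type value, −0.39, against 0.14, −0.33 and −0.07, and could not be tested. For roX1 the difference was 0.74 (adjusted p = 0.265) without overlap, and it passed in females at 24, 48, 72 and 96 hours (1.38, 2.46, 2.81 and 2.15). Of 2 probes for white (w), mutant on the paternal X chromosome, 1 was at 1.00, 1.02 and 1.11 against 1.15, 1.27 and 0.96 (−0.08, adjusted p = 0.929), and the other differed by −0.06. The gene yellow (y), also mutant on that chromosome, could not be tested, since it had a value on all 3 tud progeny arrays and on none of the wild type arrays.

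Some probes had values in 1 genotype alone. On all 3 arrays of one and none of the other, 60 probes were measured in wild type females and 117 in tud progeny females, and with at least 2 of 3 arrays the numbers were 277 and 268. Of the 60, 2 had gene names, among them pelle (pll), the kinase of the Toll pathway, at 0.48, 0.17 and 1.52. Of the 117, 8 had gene names. Among those were yellow, a pigmentation gene mutant in the fathers of the tud progeny, at 0.37, 0.12 and −1.36, and the eye pigment transporter gene scarlet (st), at 0.52, 0.02 and 0.57. A value is missing where both channels were weak or a spot was discarded, so these counts are not tests of expression.

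The same genotype contrast was next set beside that of 0 hour males, which uses 6 other arrays and the same reference. In males 1594 of 6081 probes passed (26.2%), 586 higher (9.64%) and 1008 lower in wild type (16.6%). Of the 238 lower probes, 215 were tested in males, 190 of those had the same sign (88.4%), 122 passed in the same direction and 7 in the opposite one. Of the 222 higher probes, 202 were tested in males, 136 had the same sign (67.3%), 74 passed in the same direction and 16 in the opposite one. Over all 5180 probes tested in both sexes, 58.7% had the same sign. Their median difference in males was −0.10, so a negative sign was the more common one there. No background share was computed for each direction. Of the 6 storage protein members, 4 were lower in wild type males (16.6% of all probes) and 1 was higher (9.64%). Lsp1alpha, Lsp1beta and Lsp1gamma were lower in wild type males too, by −1.24, −1.18 and −0.63 (adjusted p = 0.00683 for Lsp1alpha), as were TotA (−1.02), Prosalpha1 (−1.69), Mgstl (−1.59), CG15369 (−1.71) and Npc2b (−2.23), and CG6191, RpL28, Adk3 and CG9895 were higher, by 2.35, 1.41, 1.41 and 2.16.

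**Figure D3:**
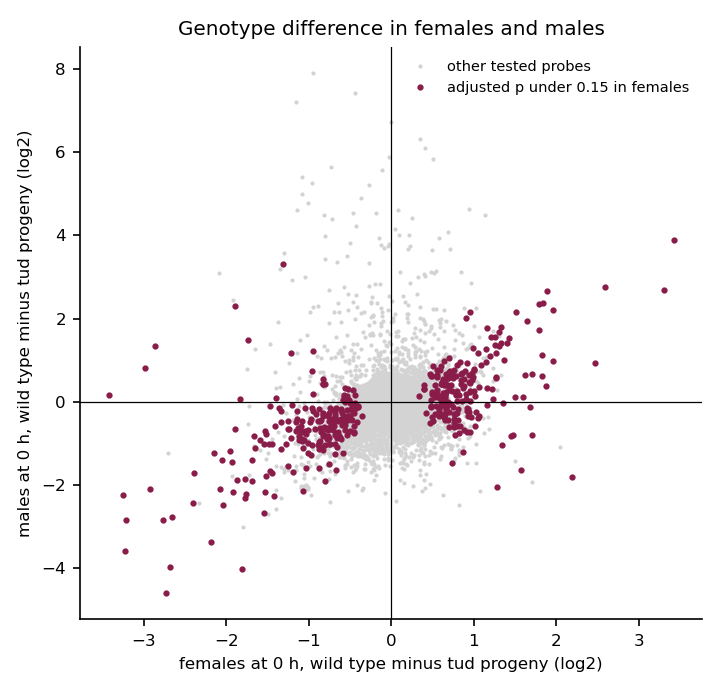
Difference between wild type and tud progeny (log2) in 0 hour females (x axis) and 0 hour males (y axis) for each of the 5180 probes tested in both; dark points passed an adjusted p of 0.15 in females. Of the probes lower in wild type females 88.4% lie below 0 in males, and of those higher 67.3% lie above 0. The median male difference over all 5180 probes was −0.10.

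The difference of the differences was tested as an interaction in the same fit. It passed for 596 of 5180 probes (11.5%), and for 95 of the 417 probes called in females that could be tested. Those 417 were picked by the female difference that is part of this interaction, so a raised share among them can come from that choice alone. Pepck1 was higher in wild type by 1.87 in females but by 0.38 in males, where it did not pass (females minus males 1.49). Men was lower by −1.48 in females and −0.10 in males (−1.37). Mst87F and CG8701 went opposite ways, lower in wild type females and higher in wild type males (Mst87F by 3.32, CG8701 by 1.48, with female minus male differences of −4.64 and −3.22). Rpt6 was the reverse, higher in wild type females by 0.47 and lower in wild type males by −0.50. The female calls of Mst87F, CG8701 and Rpt6 each depended on single arrays. CG8701 lay far below the reference, at −4.96, −3.98 and −3.85 in wild type and −2.26, −2.25 and −3.04 in tud progeny females (adjusted p = 0.114). Its call was lost without wild type replicate 1 or 2 or tud progeny replicate 1 or 2 (0.152 to 0.304). For Lsp1alpha the female minus male difference was −0.91 and missed the threshold (adjusted p = 0.302).

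Across later stages of the same sex, some differences of 0 hour females passed at every stage and others did not. Counts of called probes in females were 623 of 5679 at 24 hours (11.0%), 341 of 4634 at 48 hours (7.36%), 333 of 4458 at 72 hours (7.47%) and 2317 of 5562 at 96 hours (41.7%). Of the probes lower in 0 hour wild type females, 80 of 198 tested at 24 hours passed in the same direction (8.36% of all tested) and none in the opposite one, whereas at 96 hours 71 of 198 passed in the same direction (24.5% of all tested) and 51 in the opposite one. Of the probes higher at 0 hour, 27 of 199 passed in the same direction at 24 hours (2.61% of all tested) and 8 in the opposite one, and at 96 hours 30 of 190 passed in the same direction (17.2% of all tested) and 66 in the opposite one. The storage proteins were lower in wild type females for 4 of 6 members at 24 hours, 3 at 48 hours (3.73% of all tested probes), none at 72 hours (3.61%) and all 6 at 96 hours. At 48 hours 1 member was higher in wild type (168 of all 4634 probes tested were higher). Lsp1alpha, for one, differed by −1.58, −1.61, −0.37 and −3.47 at 24, 48, 72 and 96 hours.

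A small set passed in all 5 female stages and in 0 hour males. Of 147 higher probes tested in all of these comparisons it held 2, CG6191 and DAT, and of 155 lower probes it held 8, which were CG15369, CG31775, Mgstl, Prosalpha1, Prosalpha1R, CCHa2 and the unnamed DAC016P14 and DAC029H06. These probes were first picked by their 0 hour call, and no share over all probes was computed for passing everywhere. The 0 hour call of DAT was lost without any array but tud progeny replicate 2 (adjusted p from 0.170 to 0.398). CCHa2, a peptide hormone gene, was at −1.74, −1.89 and −1.89 in wild type and −0.70, −0.94 and −0.68 in tud progeny females at 0 hour, without overlap (−1.07 ± 0.20, SE, adjusted p = 0.000658). DAC029H06 kept a difference between −2.47 and −3.99 at every later female stage. Pepck1 was higher in wild type females at all 5 stages, by 2.02 at 24 hours and 1.42 at 96 hours, but did not pass in 0 hour males.

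Other genes passed at 0 hour and not in most later stages, or changed direction. The 0 hour difference in females was set against the mean of the 4 later ones in the same fit, and it differed for 337 of 3290 probes (10.2%), among them 147 of 310 probes called at 0 hour. Those 310 were picked by the same 0 hour difference, so a raised share among them can come from that choice alone. Adk3 was higher by 1.33 at 0 hour, differed by 0.12 to 0.26 from 24 to 72 hours, and was lower at 96 hours (−0.49). CG9895 was higher by 1.51 at 0 hour and differed by at most 0.45 later. Npc2b and CG30193 were lower in wild type at 0 hour (−1.76 and −2.04), did not pass from 24 to 72 hours, and were higher at 96 hours (1.43 and 1.57). Drsl4 was lower at 0 hour (−0.73) and higher at 48, 72 and 96 hours (0.69, 0.61 and 0.53), and Atg8a was lower at 0 hour (−0.45) and higher at 96 hours (0.87).

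**Figure D4:**
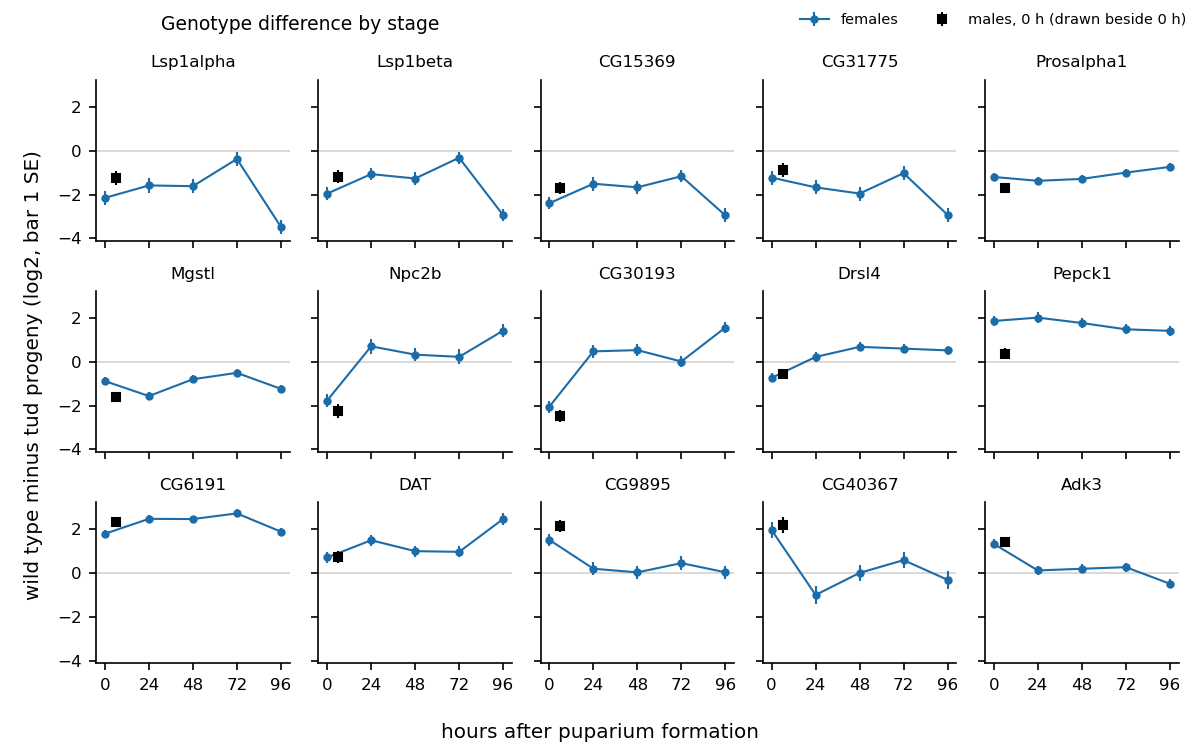
Difference between wild type and tud progeny females (y axis, log2, bars 1 SE) at 5 stages from 0 to 96 hours APF (x axis, every 24 hours) for 15 genes, with the 0 hour male difference as a square drawn beside 0. Lsp1alpha runs from −2.15 at 0 hour to −3.47 at 96 hours, Npc2b from −1.76 to 1.43, and CG6191 stays between 1.79 and 2.72.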

How the data were processed

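Whole-body RNA of 6 female samples at 0 hour APF was compared, each on its own two-color oligonucleotide array against a common reference. The authors scanned the arrays with GenePix, discarded bad elements, set an element to null unless at least 1 channel was above background, and applied global loess to each array in LIMMA. The values they deposited are log2 ratios of sample to reference, and the background correction is not given in the sources used here. No scanner intensities were used, so array number and missing values limit precision.

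The 32 control elements were left out. Differences were tested with limma 3.58.1 in R 4.3.3, with 20 group means over all 60 arrays, a contrast per comparison and eBayes over the probes with at least 2 values per group, two-sided, with Benjamini-Hochberg adjustment and a threshold of 0.15. The labels number the replicates but do not say whether they are separate RNA samples, and each array was treated as independent. Same-numbered samples did not vary together (correlation of deviations 0.05, −0.04 and −0.10 over 3695 probes), so they were not paired. The fit was tested on simulated data. Names of 2357 probes came from the study's published gene names, and 2222 of them matched a current RefSeq symbol. Chromosome positions and sequences were not used here. Named genes were fixed genes, the 12 named and 3 unnamed probes with the largest difference in each direction among called probes with all 6 values and no overlap, and up to 4 called members per list, and others were chosen after their values were seen. The members and the 18 gene lists were chosen with earlier results of these data known. Alternatives changed the missing-value rule, samples in the fit, normalization, weights, pairing, threshold and arrays left out.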

Additional observations from a re-analysis of the deposited data

Results flagged for a closer look

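The genotype difference of 0 hour females differed from that of 0 hour males for 596 probes, by the interaction term of the limma fit. Among the named probes past the threshold in females, the female difference minus the male difference was positive for Pepck1 (1.49), CG32182 (1.87), Cse1 (2.20), CG13059 (2.27), CG11353 (2.28), Rpt6 (0.98) and Mgstl (0.71). It was negative for fon (−1.24), CG8701 (−3.22), Men (−1.37) and Mst87F (−4.64). CG32182, Cse1 and Mgstl were lower in wild type in both sexes, and more so in males (−4.60, −4.02 and −1.59). CG13059 and CG11353 were higher in wild type females (1.47 and 1.46) and did not pass in males (−0.80 and −0.82). The female call of CG13059 was lost without either of 2 single arrays, and that of CG11353 without any of 4.

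The 0 hour female difference departed from the mean of the 4 later female stages for 337 probes. The difference between them was positive for CG40367 (2.14), CG9895 (1.33), CG13059 (1.82), RpL28 (0.81), HemK1 (1.39), Adk3 (1.31), Prx3 (1.28) and the unnamed probes DAC018J24 (4.53), DAC010B24 (2.60) and DAC028B23 (2.54). It was negative for the immune and gut genes Drsl5 (−1.34), Drsl4 (−1.24) and Jon99Ciii (−1.15), for GstT3 (−0.75) and GstE12 (−0.59), and for Men (−1.36), Npc2b (−2.44), fon (−2.04), CG30193 (−2.70) and CG32182 (−2.0). It was also negative for Prosalpha5 (−0.66), Atg8a (−0.78), RpS20 (−0.74), DAT (−0.77) and CG6191 (−0.59), of which DAT and CG6191 were higher in wild type at every stage. Groups of 3 arrays were too small for a test of single outlying samples.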

How the results depend on the processing

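Against 222 higher and 238 lower probes, array quality weights gave 523 and 528, a replicate block on the compared arrays alone 56 and 92, and an adjusted p under 0.05 gave 87 and 108. Leaving out 1 array gave 88 to 225 higher and 104 to 217 lower. Median-centring of the arrays gave 198 and 292, and requiring all 3 values, the compared or the female arrays alone, quantile normalization and Storey's q stayed within 1.5 times of both, although the compared arrays alone shared just 142 of the 222 and 149 of the 238 probes. The 596 probes that differed from males became 394 with all 3 values required, 248 with the compared arrays alone, 246 at 0.05 and 369 to 519 with 1 array left out. The 337 that differed from later stages became 165 with all 3 values required, 144 at 0.05, 522 by Storey's q and 168 to 361 with 1 array left out. The difference in values per array, −304, ran from −1382 to 235 with 1 array left out, turning to 233 without wild type replicate 2 and 235 without wild type replicate 3. Asking for 2 of 3 arrays gave 277 and 268 probes measured in 1 genotype alone in place of 60 and 117. The cause of these shifts was not tested, except that fewer probes are tested where all 3 values are required or an array is left out. Of the 57 probes past the threshold that the naming rule singled out, 6 of them without a gene name, 29 passed in every refit, 31 in all but the replicate block, and 0 changed sign, while 10 missed the threshold with the compared arrays alone; Lsp1gamma and Mgstl were lost under the block only. Same-numbered samples share only a number, so the block is no test of pairing.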
